A study of Rattus norvegicus with 18 samples.

Results

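The comparison of kainic acid seizures with kainic acid sham rested on 10 of the 18 rats of the series, 3 seizure rats and 7 sham rats, chosen by the groups in the labels and fitted on their own, on the 20 autosomes. All were adult male Sprague-Dawley rats. The seizure rats are labelled as having had 3 class V seizures, which are generalised convulsions, after incremental systemic doses of kainic acid that induce status epilepticus, and electrodes were implanted first. The treatment of the kainic acid sham rats, and whether they carried electrodes, is not stated. DNA came from the left hippocampus, taken whole 24 hours after the last seizure. Methylation was read by reduced representation bisulfite sequencing, which samples the CpG-rich part of the genome around cuts at MspI sites. The other 8 rats, from the electrical kindling model (4 sham and 4 seizure), served only to set level classes and as a reference outside the comparison.

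In mammalian DNA most methyl groups sit on the cytosine of a CpG. DNA methyltransferases place and copy them, and TET enzymes oxidise them on the way to removal. Regions dense in CpGs, such as the CpG islands over many gene starts, are mostly unmethylated, whereas sparse CpGs are mostly methylated. Kainic acid activates glutamate receptors of the kainate type, which are abundant in the hippocampus, and the lasting seizures it induces there are known for neuron loss and gliosis. A whole hippocampus holds neurons and glia, so a change in the mix of cells and a change within cells cannot be told apart in these data. The hippocampal origin of the samples was not checked against marker genes, and the genes at the positions below were not analysed here.

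The deposited values are methylation levels per cytosine. Without read counts, their depth is unknown. The share of autosomal cytosines listed at exactly 0, which can rise where fewer reads cover a site, ran from 9.01 to 20.6% in sham rats and from 8.91 to 12.4% in seizure rats (exact permutation p = 0.117). Sham rat 5 stood apart, with the 20.6% and with a mean distance of 2.16 percentage points per tile from the kindling mean, against 1.68 to 1.84 in the other 6 sham rats.

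Mean methylation of the hippocampus was slightly higher on average in the seizure rats, and the groups overlapped. Over 2279082 autosomal cytosines, sham rats 1 to 7 had mean levels of 42.6, 42.3, 42.4, 42.4, 42.0, 42.7 and 42.0%. Seizure rats 1 to 3 had 42.6, 42.7 and 42.7%. Sham rats 1 and 6 lay among the seizure rats, and the other 5 sham rats below them. The means were 42.4% ± 0.281 (SD, n = 7) and 42.7% ± 0.0928 (SD, n = 3), 0.332 points apart (exact permutation p = 0.1, two-sided, where 120 arrangements allow no p below 0.0167). Without sham rat 6 the difference was 0.397 points and passed (exact permutation p = 0.0476). Without any other single rat it did not pass (exact permutation p from 0.0714 without sham rat 1 to 0.278 without seizure rat 3).

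Rats with more zeros had lower mean levels. Both measures come from the same values and zeros lower a mean, so part of this relation holds by construction, most of all in tiles of low level, and the p-values below are no evidence of more than that. Across the 10 rats Pearson's r was -0.862 (permutation p = 0.00075, adjusted 0.0015) and Spearman's rho -0.770 (permutation p = 0.0129, adjusted 0.0172), with r = -0.852 without the 2 rats farthest from the median share. Within the 7 sham rats r was -0.905 (exact permutation p = 0.00179, adjusted 0.00238) and rho -0.893 (exact permutation p = 0.0123, adjusted 0.0172), with r = -0.913 without the 2 farthest. For the densest tiles, those with over 40 measured cytosines per 1000 bp, r was -0.894 over the 10 rats (permutation p = 0.00025, adjusted 0.001; without the 2 farthest -0.910) and rho -0.867 (permutation p = 0.00226, adjusted 0.00904). Within the sham rats r was -0.885 there (exact permutation p = 0.00298, adjusted 0.00298; without the 2 farthest -0.924) and rho -0.857 (exact permutation p = 0.0238, adjusted 0.0238). These are 4 relations, and the adjusted values are Benjamini-Hochberg values over them. The share of zeros was lower in the seizure rats by 3.57 points, and its part in the difference of means was not tested.

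**Figure D1:**
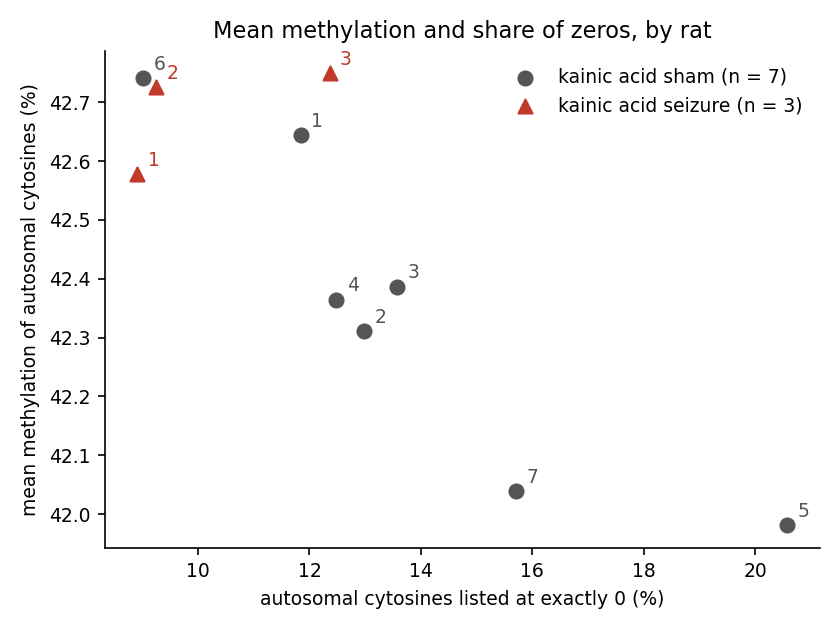
Mean methylation level (%) against the share of autosomal cytosines listed at exactly 0 (%), one point per rat, numbered by replicate, for 7 kainic acid sham rats (grey circles) and 3 seizure rats (red triangles). Rats with more zeros had lower means, and sham rats 5 and 7, with 20.6 and 15.7% zeros, had the lowest means.

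The small difference had the same sign in every class of density and level that was tested. The autosomes gave 147493 tiles of 1000 bp with at least 3 measured cytosines, and each was put in a class by its number of cytosines and by its mean level in the kindling rats, which are not part of the comparison. In 19 of 20 classes (1 with under 200 tiles was left out) the seizure mean was above the sham mean, by 0.0313 to 0.55 points. None passed the test over 19 classes (exact permutation, smallest unadjusted p = 0.05, smallest Benjamini-Hochberg adjusted p = 0.271). In 0 of them did all 3 seizure rats lie above all 7 sham rats. Without seizure rat 3 the seizure mean was higher in 16 of the 19 classes, and without any other single rat in all 19.

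By density alone, with all levels pooled, the differences were alike up to 20 cytosines per tile and larger in value in denser tiles. Tiles with 3 to 5, 6 to 10 and 11 to 20 cytosines differed by 0.247, 0.234 and 0.236 points, those with 21 to 40 by 0.344 and those with over 40 by 0.423. Within a level class the pattern varied with the level. From the sparsest to the densest class, tiles of 10 to 50% differed by 0.506, 0.450, 0.345, 0.436 and 0.456 points. Those of 50 to 90% differed by 0.442, 0.322, 0.284, 0.280 and 0.550 points. Densest tiles had levels of 13.2, 12.9, 12.8, 12.7, 12.3, 13.3 and 12.3% in sham rats 1 to 7 and 13.1, 13.3 and 13.1% in seizure rats 1 to 3. Here sham rats 1 and 6 reached the seizure rats again, and sham rats 5 and 7 lay lowest. By level the differences were 0.391 points for tiles under 10%, 0.439 for 10 to 50%, 0.355 for 50 to 90% and 0.0534 for tiles over 90%. In tiles over 90% the sham level was 95.3% ± 0.0840 (SD, n = 7) and the seizure level 95.4% ± 0.122 (SD, n = 3). On each of the 20 autosomes the mean over tiles was higher in the seizure rats.

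**Figure D2:**
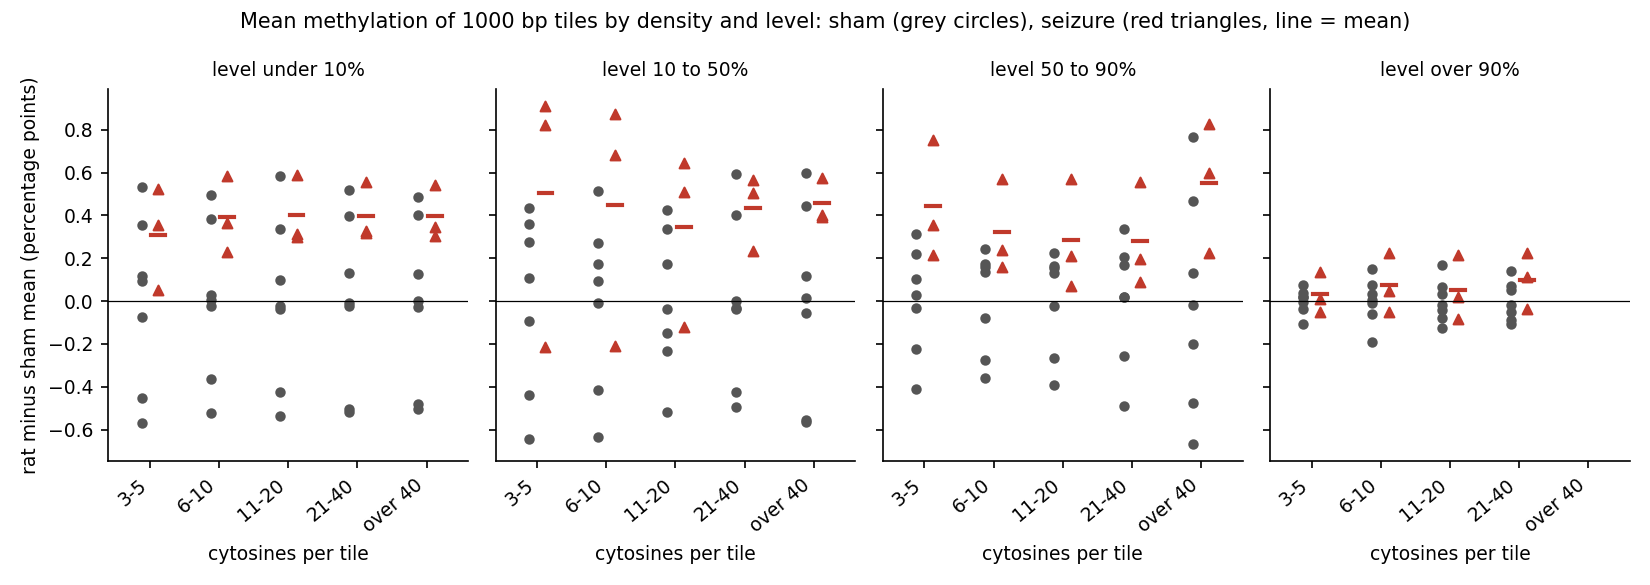
Mean methylation of tiles in each class of measured cytosines per 1000 bp tile (horizontal axis) and level (panels), as each rat's value minus the sham mean of that class in percentage points. Sham rats are grey circles (n = 7), seizure rats red triangles (n = 3) with their mean as a line; the class of over 40 cytosines and over 90% had under 200 tiles and is not drawn, and the groups overlap in all 19 classes drawn.

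No single tile differed between seizure and sham rats after adjustment. Of the 147493 tiles, the 67049 whose level ranged over at least 5 points among the 10 rats were tested with limma, and 0% passed a Benjamini-Hochberg adjusted p of 0.05 in either direction (smallest 0.307). At an unadjusted p under 0.05, 1825 tiles were higher in seizure rats (2.72% of those tested) and 1262 lower (1.88%). Without the filter on range these counts were 5526 and 2723 of 147485 tiles, and with the mean level of each rat as a covariate 1382 and 1235. The groups did not overlap at 653 tiles that were higher (0.974%) and 336 that were lower (0.501%). With 3 and 7 rats, random labels would separate the groups, in either direction, with a probability of 0.0167, and these shares together lay below it. In the reported fit 4.6% of the tested tiles had an unadjusted p under 0.05, no more than that threshold passes without any difference. Neither count is thus an excess. The 95% interval of a tile's difference reached 4.31 points to either side at the median tile. Leaving out 1 rat gave calls at 1 tile without sham rat 2, 2 without sham rat 4, 8 without sham rat 5, 1 without sham rat 6, 3 without sham rat 7, and 9 each without seizure rats 1 and 2, which leaves 2 rats in that group. Without sham rats 1 or 3 or seizure rat 3 the count was 0.

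Which way the tiles with an unadjusted p under 0.05 went varied with their level. Of 996 tested tiles under 10%, 39 were higher (3.92%) and 7 lower (0.703%) in seizure rats. Of 11148 tested at 10 to 50% the counts were 366 and 161, and of 43591 at 50 to 90% they were 1224 and 809. Of 11314 tested over 90%, 196 were higher (1.73%) and 285 lower (2.52%), so the order turned. It turned only among these selected tiles: at any p, 56.5% of the tested tiles over 90% had the higher mean in seizure rats (median difference 0.267 points). Among tiles with an unadjusted p under 0.05, the share that was higher was thus 84.8% in the lowest class and 40.7% in the highest. With any 1 rat left out it stayed between 77.3 and 90% in the lowest class and between 29.6 and 44.7% in the highest, but both directions depended on the scale or model. With the mean level of each rat as a covariate the lowest class had 48.1% higher, and on the log odds scale (M values) the highest class had 59.3% higher.

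**Figure D3:**
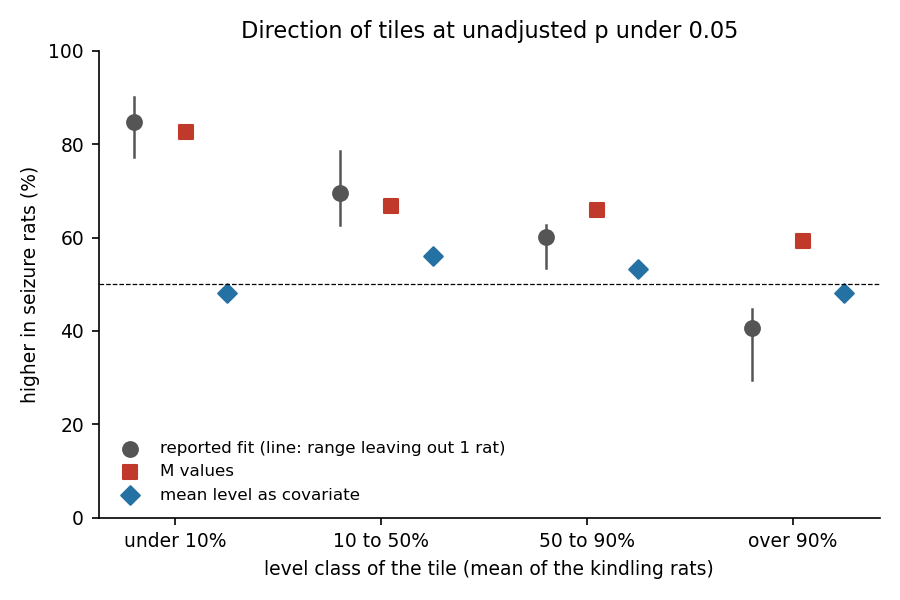
Share of tiles with an unadjusted p under 0.05 that were higher in seizure rats (%), by level class, in the reported fit (grey, with the range over leaving out 1 of 10 rats), with M values (red squares) and with the mean level as a covariate (blue diamonds); the dashed line marks 50%. The share falls from 84.8 to 40.7% over the classes in the reported fit, and the alternatives move the lowest class to 48.1% (covariate) and the highest to 59.3% (M values).

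Sparse tiles held most of the large differences. Differences over 10 points in the fitted tiles numbered 337 higher and 291 lower, of which 238 and 178 lay in tiles of 3 to 5 cytosines. Those over 20 points numbered 20 and 23, and 19 and 17 of them lay in such tiles. Tiles of 3 to 5 cytosines make up 27523 of the 67049 tested. Only 412 of the 12297 tiles with over 40 cytosines varied enough to be tested, and 9 of these were higher and 1 lower at an unadjusted p under 0.05.

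The 8 higher and 8 lower tiles of smallest p had differences of 8.93 to 26.5 points in size, and none passed (limma adjusted p from 0.307 to 0.659). Of these 16, 11 held at most 5 cytosines. On chromosome 2 a tile (30017001 to 30018000, 8 cytosines) had levels of 67.7, 68.2, 67.9, 63.9, 67.4, 67.7 and 67.7% in sham rats 1 to 7. Its seizure rats had 78.1, 81.3 and 87.9%. All 3 seizure rats lay above all sham rats, a difference of 15.2 points (SE 2.07, limma adjusted p = 0.307). Among lower tiles, the one of smallest p lay on chromosome 13 (51084001 to 51085000, 4 cytosines). It had 73.2, 68.1, 71.6, 73.5, 74.9, 68.1 and 70.2% in sham rats and 58.8, 58.1 and 55.1% in seizure rats. Every seizure rat lay below every sham rat there, and the difference was -14.1 points (SE 2.02, limma adjusted p = 0.307).

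The largest difference among the 16 lay on chromosome 16 (11117001 to 11118000, 4 cytosines). Sham rats 1 to 7 had levels of 93.7, 76.2, 94.2, 92.2, 95.9, 92.9 and 94.4% there, and seizure rats had 75.7, 50.7 and 68.1%. Sham rat 2 lay next to seizure rat 1 and far below the other sham rats. On chromosome 3 (159374001 to 159375000, 4 cytosines) the sham rats had 73.6, 71.3, 76.5, 63.0, 52.4, 70.4 and 78.2% and the seizure rats 47.0, 39.1 and 44.1%. All 4 cytosines of that tile were lower in the seizure rats by over 10 points.

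One CpG carried the difference in most of these tiles. Removing the CpG that changed most in the tile's direction, both strands together, lowers a tile's difference by construction, so only the size of the drop is given. The chromosome 2 tile went from 15.2 to 0.742 points, its CpG at 30017701 differing by 58.6 points. At the chromosome 16 tile the difference went from -26.5 to -0.281 points, with -52.8 points at 1 CpG. By contrast the chromosome 13 tile went only from -14.1 to -13.7 points, and the chromosome 3 tile from -25.9 to -21.9. In 12 of the 16 tiles the remaining cytosines kept under 50% of the difference or turned its sign. Among all 22 tiles described, which add the smallest p per density class, that number was 15, and in 6 tiles every cytosine went the tile's way.

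In the 2 tiles described with over 40 cytosines, the differences were small and shared by most cytosines. A tile on chromosome 2 with 48 cytosines (5591001 to 5592000) had 15.1, 15.2, 16.3, 16.5, 12.9, 17.1 and 16.7% in sham rats and 21.3, 18.1 and 21.5% in seizure rats. It was higher in all 3 seizure rats, by 4.6 points (SE 1.46, limma unadjusted p = 0.00745, adjusted 0.989), with 43 of its 48 cytosines higher. On chromosome 11 a tile with 43 cytosines (32308001 to 32309000) had 14.1, 10.2, 10.3, 11.6, 9.31, 8.78 and 10.1% in sham rats and 6.95, 7.15 and 7.47% in seizure rats. There 42 of 43 cytosines were lower, the tile differed by -3.43 points (SE 1.35, limma adjusted p = 0.989), and neither tile changed much without its most changed CpG (4.38 and -3.36 points). Not all dense tiles were like these: 2 of the 412 tested with over 40 cytosines were lower by over 10 points, and a tile of 24 cytosines on chromosome 6 (48765001 to 48766000) went from -6.52 to -1.70 points without 1 CpG.

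Outside the comparison, in the kindling rats, the difference of seizure from sham rats had the same sign as in kainic acid at 8 of the 22 tiles. The mean of the kindling sham rats lay closer to the kainic acid seizure mean than to the kainic acid sham mean at 9 of them.

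**Figure D4:**
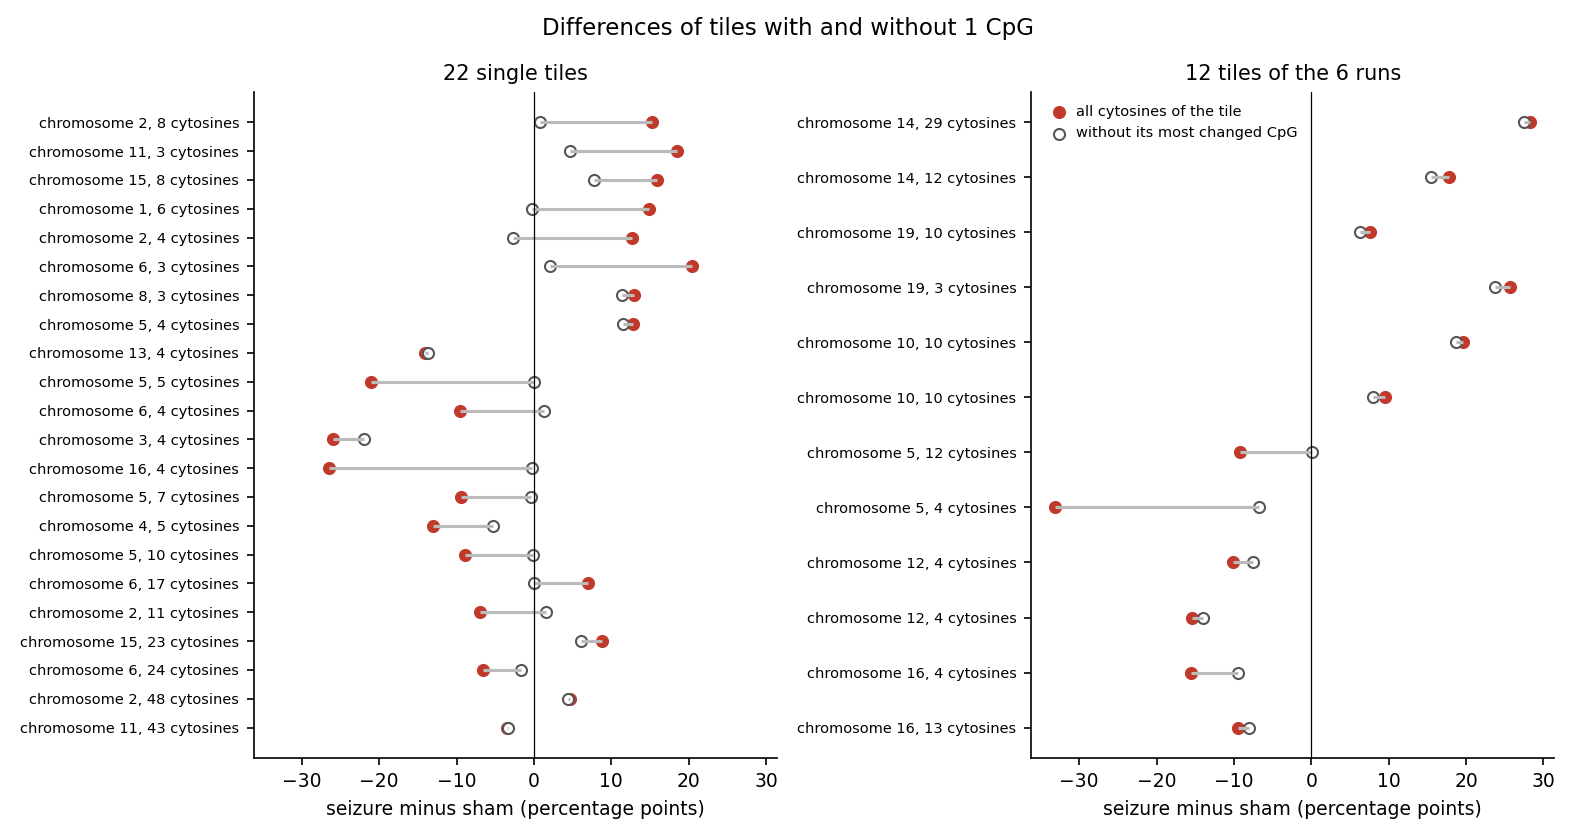
Seizure minus sham difference in percentage points for 22 tiles chosen by p (left) and the 12 tiles of the 6 largest runs (right), over all cytosines of the tile (red) and without its most changed CpG (open circles), with the chromosome and number of cytosines. The remaining difference is under 50% or of the other sign at 15 of the 22 tiles and at 2 of the 12 run tiles, the latter both on chromosome 5.

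At single cytosines the seizure rats differed from sham rats at 35 of 638317 that were tested, those with a range of at least 10 points (limma adjusted p under 0.05). Of these, 16 were higher (0.00251%) and 19 lower (0.00298%), by 25.3 to 73.1 points in size. They lay at 29 CpGs on 12 chromosomes, and 6 CpGs were called on both strands. Chromosome 16 held 7, chromosome 2 held 6 and chromosomes 9 and 14 held 4 each. At an unadjusted p under 0.05, 16240 cytosines were higher (2.54%) and 12459 lower (1.95%). The groups did not overlap at 5960 that were higher (0.934%) and 3612 that were lower (0.566%). As with the tiles tested, both totals were no larger than the threshold of 0.05 or random labels would give.

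Most of the called cytosines had a low or high level in sham rats and an intermediate one in seizure rats. The sham mean was under 10% at 14 of them and over 80% at 16. Of the 105 values in seizure rats, 85 lay between 20 and 80%, against 40 of 245 in sham rats. At 24 of the 35 all 3 seizure rats lay in that range. Others went the opposite way, from an intermediate sham mean to an end of the scale: 45.7 to 3.69% at 98248167 on chromosome 6, 39.8 to 4.21% at 51004813 on chromosome 13, 66.9 to 4.58% at 188430871 on chromosome 1 and 38.0 to 96.4% at 55968009 on chromosome 2. These counts describe cytosines chosen for their difference. In the kindling rats, which had no part in the choice, 114 of 280 values lay between 20 and 80%, and at 30 of the 35 cytosines the kindling rats spanned over 40 points. Their difference of seizure from sham rats had the same sign as in kainic acid at 9 of the 35, 2 of the 16 higher and 7 of the 19 lower. The DNA sequence of each rat at these CpGs was not examined, and its part in these levels was not tested. In the fit over all 18 rats, where the kindling rats add to the estimate of spread, 5 of 638317 cytosines passed.

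On chromosome 16 a CpG at 11016924 was called on both strands. Its plus-strand cytosine had 0.617, 0.735, 0, 0.538, 0, 0.637 and 0% in sham rats 1 to 7 and 37.9, 38.4 and 49.1% in seizure rats, 41.4 points apart (SE 2.84, limma adjusted p = 2.26e-05). The groups were far apart there, with every sham rat near 0. Kindling sham rats 1 to 4 had 34.9, 0, 47.5 and 91.7% at this cytosine (mean 43.5%), and all 4 kindling seizure rats had 0%. Another minus-strand cytosine of that chromosome, at 10998399, went the other way, with 96.2, 96.6, 96.3, 92.8, 94.6, 94.7 and 95.7% in sham rats and 55.9, 46.8 and 43.8% in seizure rats (limma adjusted p = 2.26e-05). Kindling sham rats 1 to 4 had 66.0, 95.6, 42.0 and 0% there (mean 50.9%), and the kindling seizure rats had 93.6 to 97.6% (mean 95.1%). Single kindling sham rats thus differed widely at both cytosines.

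On chromosome 2 the minus-strand cytosine at 140398957 had 93.2, 95.2, 97.0, 94.3, 92.7, 95.7 and 98.0% in sham rats and 62.3, 55.8 and 55.1% in seizure rats, a difference of -37.4 points (SE 2.92, limma adjusted p = 9.78e-05). Of 127 other cytosines measured within 500 bp of it, 0 were lower by over 10 points. The largest gain lay on chromosome 15 at 34398849, from 0% in sham rats 1, 2, 3, 5 and 7 and 36.0 and 24.1% in sham rats 4 and 6 to 55.6, 89.5 and 100% in the seizure rats. That is 73.1 points (SE 9.20, limma adjusted p = 0.0177). The largest loss lay on chromosome 5 at 149460207, where sham rats 1 to 6 had 97.0 to 100% and sham rat 7 had 65.1%, and the seizure rats had 27.6, 50.7 and 11.9%. It came to -63.6 points (SE 7.90, limma adjusted p = 0.0157).

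Few neighbours moved with the called cytosines. The cytosine on the opposite strand was measured at 22 of the 35 and followed it by over 10 points at 18. Of 577 other cytosines within 500 bp, counted once for each called cytosine they lie near, 40 shared its direction by over 10 points and 7 opposed it by as much, and 27 of the 35 had no neighbour that shared it. Most of the 40 came from 1 place, as each of the 4 called cytosines on chromosome 14 had 8 such neighbours, counted again for each.

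A group of 4 called cytosines on chromosome 14 differed on 1 strand only. They lie on the minus strand from 107749732 to 107749794 and had nearly equal values in each rat. At 107749772 the sham rats had 0, 0, 5, 4.35, 15.8, 0 and 5.56% and the seizure rats 38.7, 42.4 and 25%, a difference of 31.0 points (SE 4.10, limma adjusted p = 0.0287). Its plus-strand partner at 107749771 had 57.6, 47.1, 22.6, 18.5, 31.8, 43.2 and 28% in sham rats and 22.9, 50 and 35.5% in seizure rats. That strand differed by 0.600 points and its groups overlapped. The other 2 measured partners differed by -0.941 and -0.205 points.

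**Figure D5:**
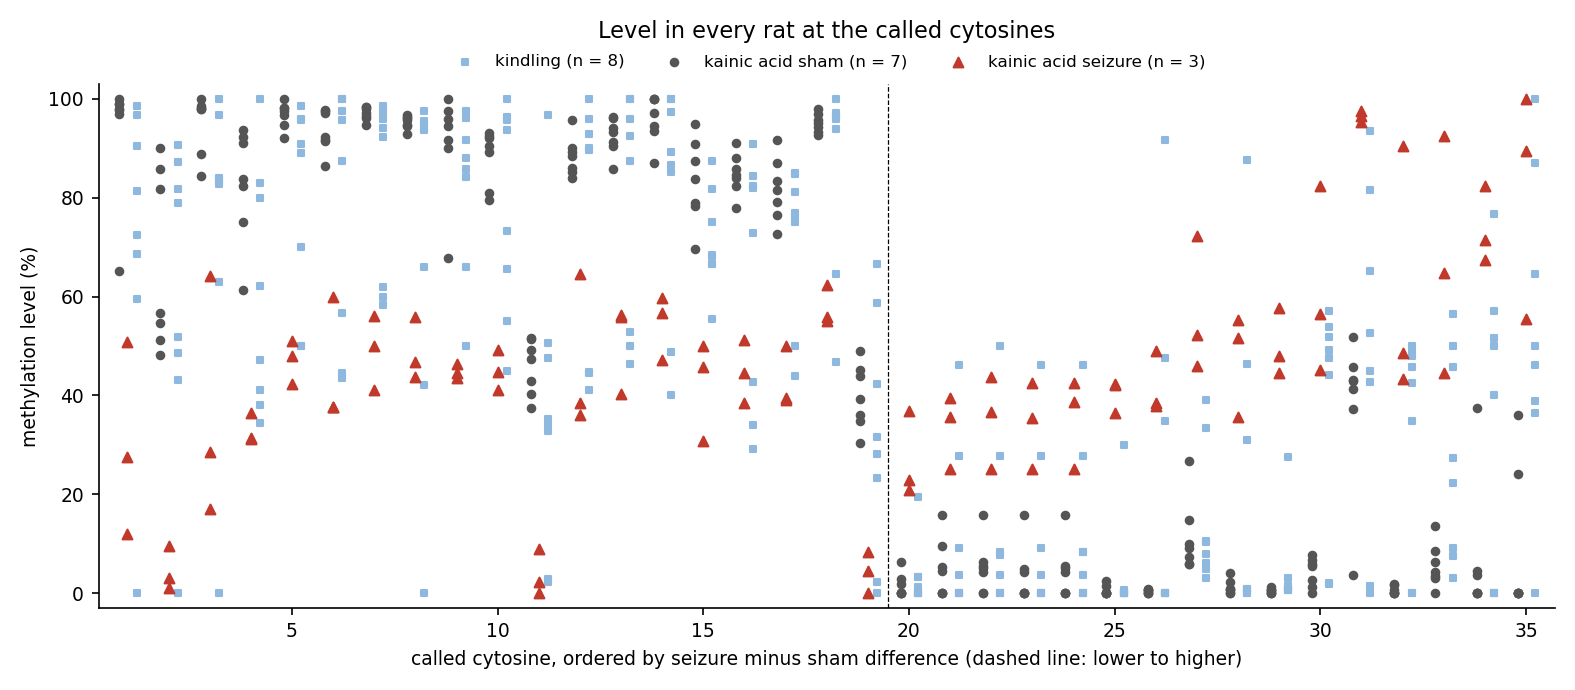
Methylation level (%) at the 35 called cytosines, ordered by difference, in 7 kainic acid sham rats (grey circles), 3 seizure rats (red triangles) and, for reference, 8 kindling rats (blue squares). The 19 cytosines left of the dashed line are lower and the 16 right of it higher in seizure rats; most seizure values lie between 20 and 80%, and the kindling rats span over 40 points at 30 of the 35.

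The number of called cytosines moved with single rats. It was 84 without sham rat 4, 85 without sham rat 5, 66 without sham rat 6, 55 without sham rat 7, 98 without seizure rat 1 and 140 without seizure rat 2. Leaving out another rat gave 27 to 44. Of the 35, from 21 (without sham rat 1) to 35 (without sham rat 5) were among the calls. With no filter on range, 53 passed, and cytosines with an unadjusted p under 0.05 were then 108775 higher and 32737 lower.

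Runs of adjacent tiles that changed together were short. A run was taken as at least 2 successive tested tiles, with starts at most 2000 bp apart, each at an unadjusted limma p under 0.05 and of the same sign. There were 23 higher and 13 lower runs, every one of 2 tiles. They held 46 of the 1825 higher tiles (2.52%) and 26 of the 1262 lower ones (2.06%). Both tiles of a run had groups that did not overlap in 2 higher runs and 1 lower run. With 1 rat left out the number of runs was 26 to 48, and from 28 (without seizure rat 1) to 66 (without sham rat 1) of the 72 run tiles were still in runs.

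Neighbouring tiles shared some of their difference. Among 11039 pairs of successive tested tiles, 54.3% had the same sign. As 57.8% of all tested tiles had the higher mean in seizure rats, part of this agreement needs no link between neighbours. Of the neighbours of higher tiles, 7.63% were also higher, against 2.73% of all neighbours. For lower tiles the shares were 6.60% and 1.78%. Tiles are no independent replicates, and across them the differences of tiles 1 kb apart had a Pearson's r of 0.156 (7310 pairs), at 2 kb 0.0487 and at 3 to 5 kb 0.0355. Single sham rats showed such a relation too: the deviations of each sham rat from the other sham rats had r of 0.1 to 0.170 at 1 kb. Seizure rats 1 to 3, each set against the other 2 seizure rats, had 0.265, 0.196 and 0.131, so 2 of the 3 were above every sham rat, with fewer rats behind each deviation.

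In each tile of the higher runs described most cytosines went the same way, as they did in the lower runs on chromosomes 12 and 16. In the first tile of the lower run on chromosome 5 it was 6 of 12 cytosines, and in its second tile 4 of 4. On chromosome 14 (11164001 to 11166000, 41 cytosines) the mean over both tiles was 51.5, 57.2, 35.9, 38.9, 57.2, 38.1 and 38.3% in sham rats 1 to 7 and 52.2, 75.9 and 77.1% in seizure rats. Seizure rat 1 lay among sham rats 1, 2 and 5, and the other 4 sham rats lay lower. The mean difference was 23.1 points, all 29 cytosines of the first tile were higher by over 10 points, and neither tile passed (limma adjusted p at least 0.900). Kindling sham rats 1 to 4 had 46.8, 73.7, 43.4 and 66.4% there, and kindling seizure rats 1 to 4 had 42.2, 36.7, 37.9 and 59.3%. Chromosome 10 (104433001 to 104435000, 20 cytosines) held a run with 42.8, 37.8, 38.0, 48.1, 41.4, 49.7 and 38.7% in sham rats and 54.2, 52.4 and 64.2% in seizure rats. Both of its tiles separated the groups, with a mean difference of 14.6 points (10.9 without seizure rat 3), and the kindling rats ran from 37.7 to 65.0%.

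The third higher run, on chromosome 19 (57951001 to 57953000, 13 cytosines), was higher in seizure rats by a mean of 16.6 points, with overlapping groups in 1 of its tiles. Among lower runs, the one on chromosome 5 (152603001 to 152606000, 16 cytosines) had 95.5, 94.8, 94.9, 94.7, 80.3, 94.8 and 78.5% in sham rats and 65.9, 78.6 and 63.5% in seizure rats. Sham rats 5 and 7 lay near seizure rat 2, and the mean difference was -21.2 points. Without its most changed CpG each of these 2 tiles kept little, 0.149 instead of -9.22 points and -6.71 instead of -33.1. The runs on chromosome 12 (41857001 to 41860000) and chromosome 16 (11271001 to 11273000) differed by -12.8 and -12.5 points, with overlapping groups. The chromosome 16 run had 40.2, 44.5, 42.1, 53.0, 64.6, 60.9 and 44.8% in sham rats 1 to 7 and 45.3, 32.8 and 34.6% in seizure rats. Without sham rat 6, 0 of its tiles kept an unadjusted p under 0.05 (limma).

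By windows of 1 Mb, the share of tested tiles with an unadjusted p under 0.05 was highest on chromosome 16 from 11 to 12 Mb, with 9 of 26 tiles (34.6%), 3 higher and 6 lower. All tested tiles together had 4.6%, and the median of the 1208 windows with at least 20 tiles was 4%. Next came chromosome 18 from 16 to 17 Mb (25%, 5 higher and 0 lower), chromosome 15 from 17 to 18 Mb (23.8%), chromosome 1 from 134 to 135 Mb (21.7%) and chromosome 14 from 11 to 12 Mb (21.5%, 4 higher and 10 lower). In 4 of these 5 windows both higher and lower tiles were present.

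The spread between seizure rats was about that between sham rats. Over all tiles the root mean square SD was 2.77 points in sham rats and 2.66 in seizure rats. The mean absolute difference per tile between 2 sham rats was 2.34 points (2.16 to 2.60 over 21 pairs), that between 2 seizure rats 2.28 (2.20 to 2.40 over 3 pairs) and that between a sham and a seizure rat 2.33 (2.13 to 2.64 over 21 pairs). On average a sham and a seizure rat thus differed no more than 2 sham rats did, though pairs share rats and no test was made.

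Spread fell with density, from 3.03 points between sham rats and 2.93 between seizure rats in tiles of 3 to 5 cytosines to 0.731 and 0.601 in tiles of over 40. By level it was widest in tiles of 50 to 90%, with 3.50 and 3.41 points, and lowest in tiles under 10%, with 0.914 and 0.830. The seizure pairs had the lower mean in each of these classes, but not in tiles of 11 to 20 cytosines (2.06 points against 2.05 in sham pairs). As a measure outside the comparison, the mean distance of a rat's tiles from the mean of the 8 kindling rats was 1.84, 1.72, 1.77, 1.81, 2.16, 1.71 and 1.68 points in sham rats 1 to 7 and 1.65, 1.82 and 1.78 in seizure rats. Apart from sham rat 5 these values were interleaved, and the groups differed by -0.0629 points (exact permutation p = 0.65, two-sided), or by -0.00546 without sham rat 5.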

How the data were processed

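Reduced representation bisulfite sequencing was deposited by the authors as a single file of methylation fractions (beta values, 0 to 1) per cytosine, with each strand on its own row and 0 missing among 2330883 cytosines. FastQC, Trim Galore, Bismark, Bowtie2, methylKit and the build rn6 are named, per the submitters' processing notes, without versions. Coverage and filters are not stated there, so depth is unknown and no coverage minimum could be varied. Positions are those of the deposited file. Levels were turned to percent and averaged in tiles of 1000 bp with at least 3 cytosines on chromosomes 1 to 20.

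Tiles and cytosines were tested in the 10 kainic acid rats with limma 3.58.1 in R 4.3.3 (package data.table, version 1.17.8), on the fraction scale with a variance prior that follows the mean, and adjusted by Benjamini-Hochberg over all units tested, with calls at 0.05. The script was tested on simulated data. Single values were compared by two-sided exact permutation tests (scipy 1.17.1). The tables and plots were made in Python 3.11.15 with numpy 2.4.6, pandas 2.3.3 and matplotlib 3.10.9.

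The tiles described are the 8 of smallest p per direction, as none was called, and the smallest p per density class and direction. Cytosines described are among the 10 largest called per direction or were chosen after their values were seen, as were those on chromosomes 2 (140398957) and 14. Runs are the 3 per direction with most tiles and then the largest difference, and windows the 5 with the largest share. The comparison, classes and rules were chosen with earlier results of these data known. Alternatives covered filters, scale, prior, weights, covariate, tile length, strands, all 18 rats, the replicate number as a block and each rat left out. The split of directions by level under other settings, the removal of 1 CpG and the relation with the share of zeros were added after seeing the data. Gene names and marker genes were not used, since the reference tables given are of another build.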

Additional observations from a re-analysis of the deposited data

Results flagged for a closer look

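Of 72 groups of values of the 7 sham rats checked for a single rat far from the others (the distance measure and the described tiles and cytosines), 12 held one. Chance gives about 1 in 20. The tiles and cytosines had been picked for a small p, so they are no random draw. Sham rat 5 had the largest distance from the kindling mean (2.16 points, next 1.84). At tiles, the rat apart was the lowest on chromosome 2 from 30017001 (63.9%) and from 55968001 (48.0%), on chromosome 1 from 169239001 (67.4%), on chromosome 16 from 11117001 (76.2%) and on chromosome 5 from 149460001 (65.1%). It was the highest on chromosome 6 from 132117001 (85.4%).

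At single cytosines it was the highest at 48674186 on chromosome 6 (37.5%) and at 21343201 on chromosome 16 (26.7%). The lowest rat stood apart at 55968009 on chromosome 2 (3.70%), at 149460207 on chromosome 5 (65.1%) and at 275710017 on chromosome 1 (67.7%).

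The kainic acid difference also differed from the kindling difference at 4 of the cytosines described, by a test of that contrast in the 18 rats. On chromosome 9 the contrast, kainic acid minus kindling, came to 56.8 points at 16510571 (limma adjusted p = 0.00154). On chromosome 16 it came to -76.8 points at 20849982, -75.4 at 20849983 and -79.9 at 20988231 (limma adjusted p = 0.0108, 0.00136 and 0.000124). These cytosines were chosen for their kainic acid difference, which is part of that contrast.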

How the results depend on the processing

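The mean level difference kept its sign throughout and was 0.270 (without sham rat 5) to 0.397 points (without sham rat 6) with 1 rat left out. The count of called tiles, 0, became 2 with M values, 2 with strands averaged and 0 to 9 with 1 rat left out, and was 0 in the other settings tried. The 35 called cytosines became 53 without the range filter, 108 with it doubled, 14 with M values, 5 with all 18 rats, 18 with strands averaged (1 value per CpG, so fewer units) and 27 to 140 with 1 rat left out. The 36 runs became 7 at p under 0.01 and 56 with tiles of 500 bp. Among tiles at an unadjusted p under 0.05, the share higher turned from 84.8 to 48.1% for tiles under 10% with the mean level as a covariate. It turned from 40.7 to 59.3% for tiles over 90% with M values. The cause of these shifts was not tested. With the replicate number as a block 568 cytosines and 0 tiles passed and the mean difference was 0.237 points. Same-numbered rats did not deviate together (r = -0.0284, -0.0440 and -0.0186), so the numbers are not taken as pairs. Of the values for described tiles under other settings 367 of 374 stayed on their side of the threshold, and for described cytosines 269 of 340. Depth is unknown, which limits every level near 0 or 100%.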
